A study of Mus musculus with 3 samples.

Results

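Respiratory complex I (NADH:ubiquinone oxidoreductase) was followed here through every gene of the deposited gene lists whose symbol starts with Ndufa, Ndufb, Ndufc, Ndufs, Ndufv or mt-Nd, without pseudogene names and without the Ndufaf assembly factors. The rule gave 45 of the 27998 listed genes, of which 38 are nuclear and 7 are carried by the mitochondrial chromosome. Bone marrow cells negative for lineage markers and positive for the receptor c-kit were profiled by droplet single-cell RNA sequencing in 3 libraries from 2 C57BL/6 mice. The control library held DAPI-Lin-c-kit+ cells of a wild-type mouse. The other libraries came from 1 mouse that carries Mx1-Cre, a Cre recombinase driven by an interferon-responsive promoter, and a heterozygous conditional knock-in of the fusion gene Runx1-Runx1t1 (AML1-ETO) with the mCherry sequence placed downstream of it. After induction with poly(I:C), its Lin-c-kit+ cells were split into a mCherry-negative fraction (non_mCherry) and a mCherry-positive fraction (mCherry). Whether the wild-type mouse received poly(I:C), and the age and sex of the animals, are not given in the sources used here.

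Complex I takes electrons from NADH, passes them along a chain of flavin and iron-sulfur centres in a peripheral arm that reaches into the mitochondrial matrix, and hands them to ubiquinone while its membrane arm pumps protons. The core subunits of the peripheral arm are made from nuclear genes and the core subunits of the membrane arm from the mitochondrial mt-Nd genes, so the complex needs both genomes, and many accessory subunits from nuclear genes surround the core. In blood formation, quiescent stem cells are known to rely less on respiration than dividing progenitors.

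Each group is 1 library, so no difference between groups can be set against a spread between animals, and no test was made. Values are CPM, the UMIs of a gene summed over the cells of a library and scaled to a fixed library total, where a UMI stands for 1 captured mRNA molecule. Intervals are 95% Poisson or binomial intervals and cover counting error only. A gene was called lower or higher when the log2 ratio of its CPM, with 5 CPM added to both, was beyond 0.32 in that direction, and it counted as measured when its mean over the 3 libraries reached 20 CPM. A CPM is a share of the captured RNA, so less RNA from a gene in each cell, fewer cells that use it and more RNA from other genes cannot be told apart.

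After filtering, 8857 control, 7850 non_mCherry and 10150 mCherry cells remained, with 86852479 to 143339512 UMIs per library and median depths of 15416, 9242 and 8174 UMIs per cell. Between 16 and 36 barcodes of kept cells were shared by any pair of libraries. Runx1t1, part of the fusion and the check of the labels, reached 8.47 CPM in the mCherry library against 0.216 in control and 0.311 in non_mCherry. Kit, which encodes c-kit, reached 66.8 CPM in the control, 56.6 in the non_mCherry and 269 in the mCherry library, and the T cell marker Cd3e was under 0.4 CPM in each. The mCherry library also stood apart in the nuclear RNA Malat1 (4830 CPM in control, 5316 in non_mCherry and 19778 in mCherry), in the mitochondrial share of UMIs (1.86%, 1.82% and 2.53%) and in the summed CPM of 20 S phase genes (2638, 2558 and 906).

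The nuclear genes of complex I were lower in the mCherry library, whereas the mt-Nd genes as a sum were not. Summed over the 38 nuclear members, the level was 8634 (control), 8529 (non_mCherry) and 5789 CPM (mCherry). The mCherry sum was thus 0.670 of the control sum (interval 0.668 to 0.673) and 0.679 of the non_mCherry sum, while the non_mCherry sum was 0.988 of the control sum. The 7 mt-Nd members summed to 3674 (control), 3511 (non_mCherry) and 3716 CPM (mCherry), which put mCherry at 1.01 of control (interval 1.01 to 1.02). Nuclear complex I UMIs per mt-Nd UMI were therefore 2.35 in control, 2.43 in non_mCherry and 1.56 in mCherry. With the mitochondrial genes and Malat1 taken out of the denominator, the nuclear sum of mCherry was 0.686 of control. Whether the higher Malat1 and mitochondrial shares bear on the result beyond that scaling was not tested. The libraries also held different cells, so these quotients do not compare cells of the same kind. Of the 10150 mCherry cells, 5638 lay in clusters resembling stem and multipotent progenitors, which held 0 control cells. Their nuclear sum was 5824 CPM and their mt-Nd sum 3910 CPM. The cluster resembling granulocyte-monocyte progenitors held 686 control and 3 mCherry cells.

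Of the 37 measured nuclear members, 32 were called lower when mCherry was compared with control, where 33.9% of the 5787 measured genes were lower. A single member, Ndufa6, was called higher, where 34% of all measured genes were higher. The median log2 ratio of the nuclear members was -0.71, beside 0.00 over all measured genes. The 4 members that passed neither limit were Ndufa7 (-0.28), Ndufv3 (-0.26), Ndufa3 (-0.23) and Ndufa4 (0.32).

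**Figure D1:**
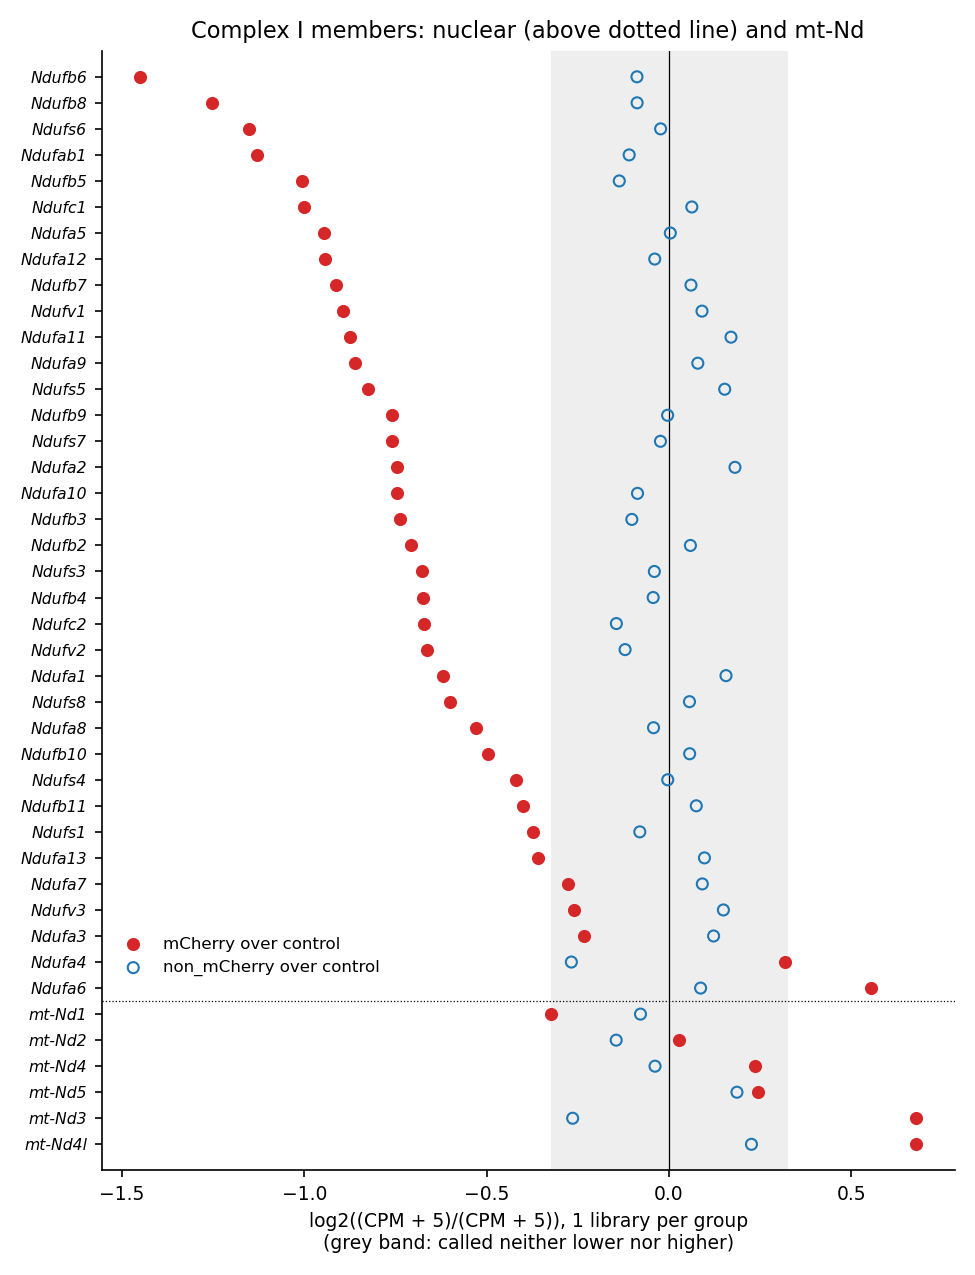
Log2 ratio of the measured complex I genes reported here, for mCherry over control (filled) and non_mCherry over control (open), with 1 library per group, the nuclear members above the dotted line and the mt-Nd members below it. The filled points of the nuclear members run from -1.45 for Ndufb6 to 0.55 for Ndufa6, and all open points lie inside the grey band between -0.32 and 0.32.

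The 7 nuclear core subunits, which carry the flavin and the iron-sulfur centres, were all lower in mCherry. Their summed level was 1193 (control), 1165 (non_mCherry) and 743 CPM (mCherry). Ndufv1, the subunit that binds NADH and the flavin, was at 128 (control), 136 (non_mCherry) and 66.5 CPM (mCherry), a log2 ratio of -0.89 to control and the lowest of the core. Its partner Ndufv2 was at 224, 206 and 140 CPM in the same order (-0.66). The subunits of the path toward ubiquinone followed, with Ndufs7 at 285, 280 and 167 CPM (-0.76), Ndufs8 at 179, 187 and 116 CPM (-0.60) and Ndufs3 at 148, 144 and 90.5 CPM (-0.68). Ndufs1, the large iron-sulfur subunit, was nearest to the limit, at 53.0, 49.8 and 39.8 CPM (-0.37). In each of these 6 the mCherry library was the lowest of the 3.

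Among the 9 accessory subunits of the peripheral arm, 6 were lower and 1 was higher. Ndufs6, a small zinc-binding subunit needed for assembly, was at 199 (control), 196 (non_mCherry) and 86.7 CPM (mCherry) (-1.15). Ndufab1, the mitochondrial acyl carrier protein that is bound in both arms and also serves mitochondrial fatty acid synthesis, was at 353, 327 and 159 CPM (-1.13). Ndufa5, Ndufa12, Ndufa9, Ndufa2 and Ndufs4 were lower by log2 ratios from -0.95 to -0.42.

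The membrane arm held the member with the lowest ratio. Of its 19 accessory subunits, 18 had a lower call and none a higher one against control, with a median log2 ratio of -0.74. Ndufb6 was at 176 (control), 165 (non_mCherry) and 61.2 CPM (mCherry), which is 2.87-fold lower than control by the quotient of the CPM (log2 ratio -1.45). Ndufb8, another subunit of the distal membrane arm, was at 422, 397 and 174 CPM (-1.25). Ndufb5 was at 379, 345 and 186 CPM (-1.01) and Ndufc1 at 181, 189 and 87.7 CPM, 2.06-fold lower in mCherry than in the wild-type library. The control and non_mCherry libraries lay close together for these genes and the mCherry library lay well below both. Ndufa13, which is part of the membrane arm near its junction with the peripheral arm, had a log2 ratio of -0.36, just past the limit (281, 300.4 and 217 CPM).

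Ndufa6 went the other way. This accessory subunit of the LYR protein family sits on the peripheral arm and binds the acyl carrier protein Ndufab1. Its level was 169 (control), 179.9 (non_mCherry) and 250.4 CPM (mCherry), a log2 ratio of 0.55 to control, so that it was the highest in mCherry of the 3 libraries while its partner Ndufab1 was the lowest there. Ndufa4 carries a complex I symbol but is assigned to complex IV by structural work. It was at 799 (control), 663 (non_mCherry) and 997 CPM (mCherry), just short of the limit against control (log2 ratio 0.317 against a limit of 0.322) and past it against non_mCherry (0.59). Ndufa4 made up 9.26% of the nuclear UMIs of the family in control, 7.77% in non_mCherry and 17.2% in mCherry. Without Ndufa4 and Ndufa4l2, a choice made after seeing the data, the nuclear sum of mCherry was 0.612 of control, or 1.64-fold lower. Ndufa4l2, a relative of Ndufa4 known for its induction in low oxygen, was under the level filter with 1 UMI in control, 5 in non_mCherry and 0 in mCherry, where the interval of a count of 0 reaches 0.0401 CPM.

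The promoters of members that differed together, and of the member that did not follow them, were read from RefSeq (build GRCm38.p6), which held 33 of the 38 nuclear members with 250 bases before to 50 after each start. The stretches below are the 100 bases before the outermost start annotated in RefSeq or GENCODE for the members with the lowest ratios (Ndufb6, Ndufb8), for a pair of lower members with an NRF1 match (Ndufa11, Ndufs5) and for the higher member (Ndufa6), each printed 5′ to 3′ on the strand of its gene. Capitals mark a match on either strand to GCGCANGCG (NRF1, a known activator of respiratory genes), GGGCGG (SP1) or CCAAT (NFY).
Ndufb6, chr4:40279422-40279521, minus strand: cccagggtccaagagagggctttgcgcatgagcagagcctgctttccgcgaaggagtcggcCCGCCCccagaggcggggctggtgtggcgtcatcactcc
Ndufb8, chr19:44555443-44555542, minus strand: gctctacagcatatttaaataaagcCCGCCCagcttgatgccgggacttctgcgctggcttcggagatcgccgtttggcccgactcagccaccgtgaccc
Ndufa11, chr17:56717662-56717761, plus strand: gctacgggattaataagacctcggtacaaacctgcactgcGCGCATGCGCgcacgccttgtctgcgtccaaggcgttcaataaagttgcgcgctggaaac
Ndufs5, chr4:123718203-123718302, minus strand: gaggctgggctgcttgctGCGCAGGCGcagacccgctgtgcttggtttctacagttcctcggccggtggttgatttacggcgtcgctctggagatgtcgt
Ndufa6, chr15:82354323-82354422, minus strand: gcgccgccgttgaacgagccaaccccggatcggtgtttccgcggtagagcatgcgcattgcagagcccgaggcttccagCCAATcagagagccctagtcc

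Over the full windows, the NRF1 letters occurred in 8 of the 33 matched members (24.2%), beside 7.03% of the 27025 genes of the promoter table. The YY1 letters AANATGGCG occurred in 7 members (21.2%) beside 2.76% of genes. GGGCGG was found in 45.5% of members and 38.2% of genes, CCAAT in 30.3% and 41.1%, CCGGAAG (GABPA) in 12.1% and 9.93%, and CACGTG (MYC) in 6.06% and 8.09%. TCAAGGTCA (ESRRA) was in none of the members' windows and in 0.466% of genes. Searches covered both strands, the letters of different motifs can overlap, and a match describes the sequence only. Ndufa6, which was higher in mCherry, also held the NRF1 letters in its full window. So did lower members such as Ndufs6 (-1.15) and Ndufa5 (-0.95), while Ndufb6 and Ndufb8, the lowest members, did not. A link between these letters and the ratios was not tested.

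The 7 mt-Nd genes, which encode the proton-pumping core of the membrane arm, did not share 1 direction. Of the 6 that were measured, 1 was lower and 2 were higher in mCherry than in control, with a median log2 ratio of 0.24. Among all measured genes, 33.9% were lower and 34% were higher. mt-Nd1, which forms the ubiquinone channel with the peripheral arm, was at 1601 (control), 1516 (non_mCherry) and 1279 CPM (mCherry). Its log2 ratio of -0.323 was just past the limit (0.322 in size), and the call was lost (-0.31 to -0.27) with every cell kept whatever its mitochondrial share, with all deposited barcodes, with mitochondrial genes and Malat1 out of the denominator, or in cells without a cycle UMI. mt-Nd2 was at 706, 638 and 720 CPM (0.03). mt-Nd3 was at 155, 129 and 251 CPM (0.68) and mt-Nd4l at 68.9, 81.5 and 113 CPM (0.68), so both were highest in mCherry. mt-Nd4 was at 940, 915 and 1107 CPM (0.24) and mt-Nd5 at 198, 225 and 235 CPM (0.24). mt-Nd6, the single member on the other strand, was under the level filter with 6.06, 7.13 and 11.0 CPM. mt-Nd4l and mt-Nd4 overlap on the same strand, and mt-Nd6 overlaps mt-Nd5 from the opposite strand, so the counting could split or swap their reads.

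The mitochondrial chromosome is transcribed as long precursors that are cut into single mRNAs. The ratios differed between the genes along it, and a dependence on place was not tested. In mCherry over control the log2 ratio was low for mt-Nd1 and mt-Nd2 at the start of the coding stretch. It was 0.95 for mt-Co1, 0.44 for mt-Co2, 0.46 for mt-Atp6, 0.61 for mt-Co3 and 0.68 for mt-Nd3 and mt-Nd4l, and then 0.24 for mt-Nd4 and mt-Nd5 and -0.07 for mt-Cytb at the end. The mt-Nd genes held 19.8% of mitochondrial mRNA UMIs in control, 19.3% in non_mCherry and 14.7% in mCherry, and the other mitochondrial mRNAs summed to 14910, 14668 and 21591 CPM.

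**Figure D2:**
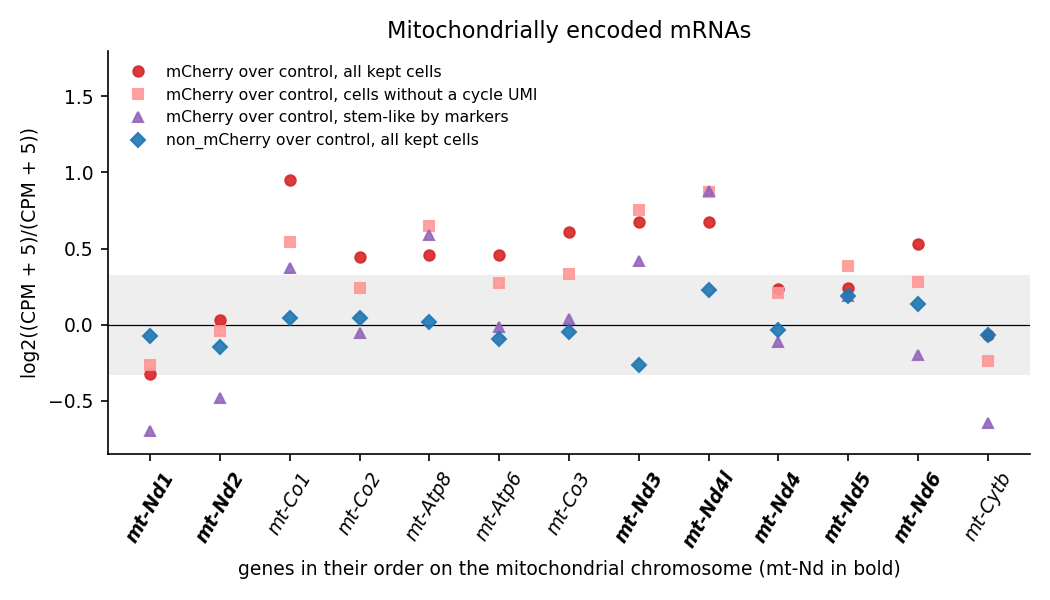
Log2 ratio of each of the 13 mitochondrial mRNAs, in gene order, for mCherry over control in all kept cells, in cells without a cycle UMI and in cells scored as stem-like one by one, and for non_mCherry over control. mt-Co1 (0.95) and the neighbours mt-Nd3 and mt-Nd4l (0.68) lie above mt-Nd1 (-0.32) and mt-Cytb (-0.07), and mt-Nd6 and mt-Atp8 are shown although they are under the level filter.

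The mCherry and non_mCherry fractions came from the same mouse. Against non_mCherry, 34 of 37 nuclear members were lower in mCherry (32.6% of all measured genes were lower) and 2 were higher, Ndufa4 (0.59) and Ndufa6 (0.47), where 34.6% of all measured genes were higher. The lowest were Ndufb6 (-1.36), Ndufb8 (-1.17), Ndufs6 (-1.13), Ndufc1 (-1.06), Ndufa11 (-1.04) and Ndufab1 (-1.02). Ndufs1, at -0.29, was the single measured nuclear member inside the limits, and Ndufa3, at -0.36, was the highest of those called lower. Of the mt-Nd members none was lower and 2 were higher, mt-Nd3 (0.94) and mt-Nd4l (0.45). This comparison and the comparison with control share the mCherry library.

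Between non_mCherry and control, 0 of 37 nuclear members were lower (3.28% of all measured genes) and 0 were higher (4.68%). The nuclear log2 ratios ran from -0.27 for Ndufa4, followed by -0.14 for Ndufc2 and Ndufb5, -0.12 for Ndufv2 and -0.11 for Ndufab1, up to 0.15 for Ndufs5, 0.16 for Ndufa1, 0.17 for Ndufa11 and 0.18 for Ndufa2. The 6 measured mt-Nd members ran from -0.26 for mt-Nd3 to 0.23 for mt-Nd4l, also with 0 calls in either direction.

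The other nuclear genes of the respiratory chain were lower in mCherry too, where 33.9% of all measured genes were lower than in control and 34% higher. Against control, 4 of 4 genes of complex II (Sdhb lowest at -0.91, Sdha highest at -0.35), 8 of 9 nuclear genes of complex III (Uqcrq -1.65, Uqcrh 0.14), 10 of 10 of complex IV (Cox5a -1.47, Cox8a -0.58) and 15 of 15 of ATP synthase (Atp5g1 -1.74, Atp5g2 -0.47) were lower. Of 7 measured complex I assembly factors, which build the complex but are not part of it, 5 were lower, with Ndufaf4 at -1.32 and Ndufaf3 at 0.06 as the ends of the list. The medians were -0.87 for the assembly factors, -0.70, -0.83, -0.88 and -0.65 for complexes II, III, IV and ATP synthase, beside -0.71 for nuclear complex I. In a list of 8 measured regulators of mitochondrial transcription and biogenesis, 4 were lower and 1 higher, from Slirp (-1.02), which stabilises mitochondrial mRNAs, to Gabpb1 (0.67), a subunit of the factor that binds the GABPA letters. The median of these regulators was -0.22, nearer to that of all measured genes (0.00) than the medians of the complexes. The other mitochondrial mRNAs were higher in 4 of 5 measured cases and lower in none. In non_mCherry over control, none of the measured genes of complexes II, III, IV, ATP synthase or the assembly factors was past the limit in either direction.

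Cycle genes differed between the libraries in the same direction as nuclear complex I: 20 of 20 S phase genes (Rrm2 lowest at -2.77, Dtl highest at -0.45) and 16 of 17 measured G2 and M phase genes (Birc5 -1.71, Kif23 -0.25) were lower in mCherry than in control. The comparison was therefore repeated in cells without any UMI of these lists after each cell had been thinned to 2000 UMIs, which left 340 control, 585 non_mCherry and 2612 mCherry cells (3.84%, 7.45% and 25.7% of those kept) with median depths of 6922, 4921 and 7809 UMIs. In these cells the nuclear sum was 6328 (control), 6265 (non_mCherry) and 5353 CPM (mCherry). The mCherry sum was 0.846 of control (interval 0.832 to 0.860), compared with 0.670 in all cells. The selection also changed the depth of the cells, and their lineage mix was not examined, so cycling was not separated from either. Of 37 nuclear members 21 were lower and 2 were higher, beside 23.2% lower and 26.5% higher among all measured genes. Ndufb6 was still the lowest, at 104 (control), 89.0 (non_mCherry) and 54.1 CPM (mCherry), a log2 ratio of -0.88, followed by Ndufa1 at 136, 121 and 73.1 CPM (-0.85). Ndufa4 (0.60) and Ndufa6 (0.38) were the members past the limit in the other direction. Ndufb10 (0.03) and Ndufs1 (0.10) were no longer lower than control. The mt-Nd sum was 1.03 of control in these cells, and there were 1.84 nuclear UMIs per mt-Nd UMI in non_mCherry and 1.44 in mCherry.

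Within the mCherry library, cluster 22, led by mitosis genes such as Cenpf, was set against the other cells. Its 717 cells had a nuclear sum of 7218 CPM and the other 9433 cells 5592 CPM, a quotient of 1.29 (interval 1.28 to 1.30), while the mt-Nd quotient was 0.985. The cells of cluster 22 were also deeper, with a median of 14849 UMIs against 7007 to 8307 in the other mCherry clusters. The parts of depth and of mitosis were not separated. Here 18 of 37 nuclear members were higher (18.3% of all measured genes) and 0 were lower (12.2%). Ndufa4 was at 1497 CPM in cluster 22 and 929 CPM in the rest (0.69), Ndufv1 at 97.0 and 62.3 CPM (0.60) and Ndufab1 at 220.3 and 150.1 CPM (0.54). Ndufa6 was the lowest, at 217 and 255 CPM (-0.23). The clusters were drawn without the complex I genes and without mitochondrial genes, but cells of 1 library are not replicates.

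Lineage classes were drawn from clusters and marker genes and named only as resembling a lineage, and clusters that did not meet the naming rule are given by their leading genes. Across the 13 control classes of at least 100 cells, the nuclear sum ran from 6171 CPM in cells like T, NK and innate lymphoid cells to 9575 CPM in granulocyte-monocyte progenitor-like cells, a quotient of 1.55. Next to it lay the unnamed cluster led by Ly6c2 and Hp (9338), erythroid-like cells (9311) and the unnamed cluster led by Car1 and Il1b (9283), whose intervals overlapped one another. Monocyte and macrophage progenitor-like cells (8832 CPM) and megakaryocyte-like cells (8108 CPM) lay between, and basophil and mast cell-like (6899), lymphoid-primed progenitor-like (6767) and neutrophil-like cells (6678) were low, with overlapping intervals for lymphoid-primed and for neutrophil-like cells. The 12 non_mCherry classes ran from 6429 CPM in the same lymphoid class to 9974 CPM in erythroid-like cells, and the B cell progenitor-like class, at least 100 cells of which were present in this library alone, was at 8831 CPM.

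The mt-Nd sum followed another order. In control it was highest in erythroid-like cells (5588 CPM) and lowest in neutrophil-like cells (2100 CPM) and granulocyte-monocyte progenitor-like cells (2542 CPM). Nuclear UMIs per mt-Nd UMI were thus 1.30 in cells like T, NK and innate lymphoid cells, 1.67 in erythroid-like cells and 3.77 in granulocyte-monocyte progenitor-like cells of control, and 1.34, 2.34 and 4.12 in the same classes of non_mCherry. The nuclear and mt-Nd sums had Pearson's r of -0.12 over the 13 control classes and -0.20 over the 12 non_mCherry classes, where the classes of a library share its preparation and depth.

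**Figure D3:**
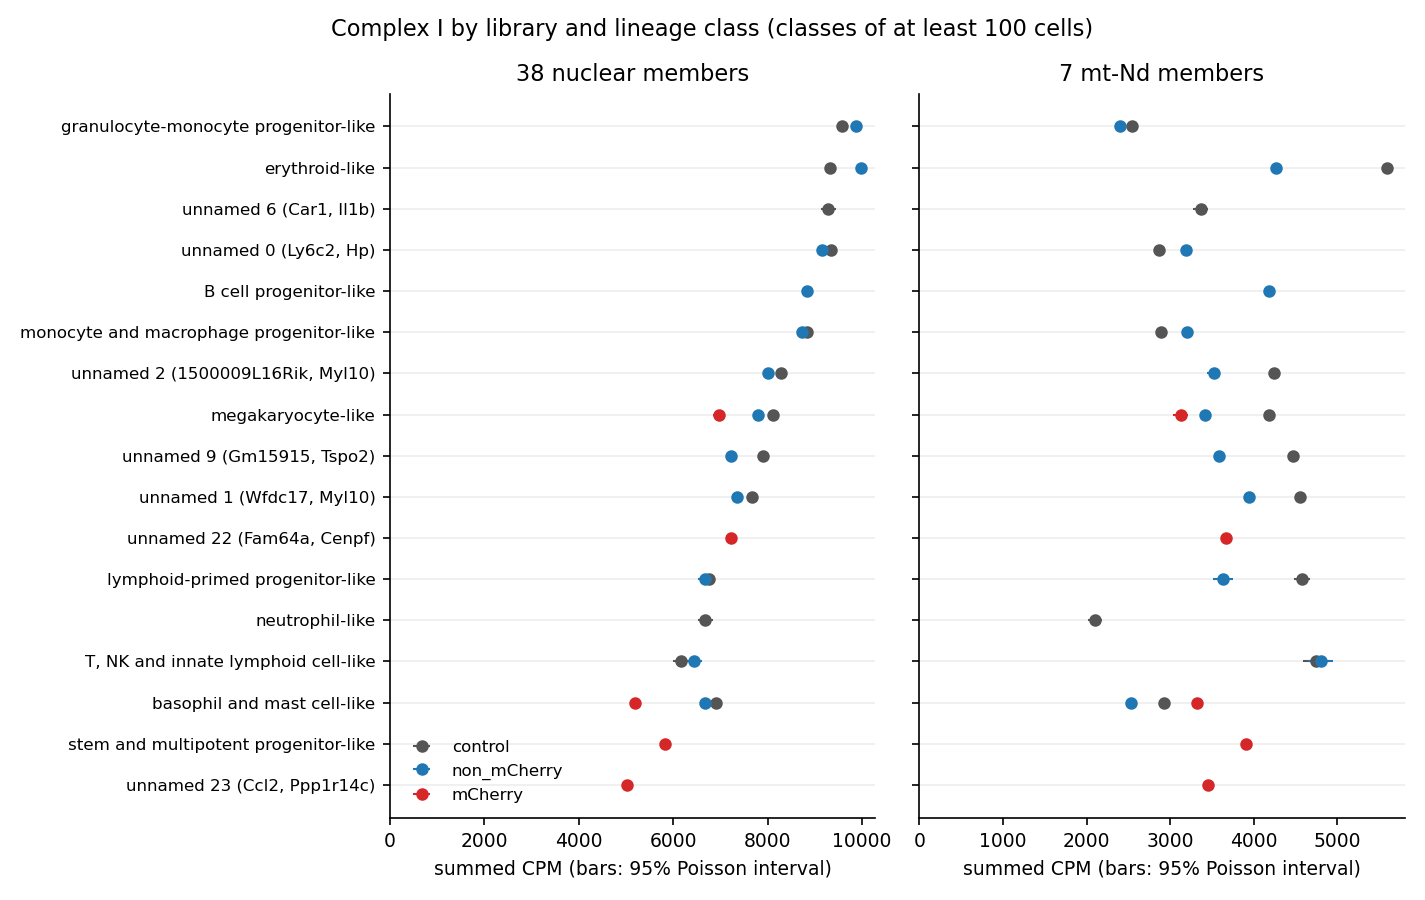
Summed CPM of the 38 nuclear members (left) and the 7 mt-Nd members (right) in each class of at least 100 cells, by library, with 95% Poisson intervals; unnamed clusters carry their first leading genes. The mCherry classes lie at 5023 to 7218 CPM for the nuclear sum, and in both classes found in all 3 libraries mCherry is the lowest point for that sum.

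The nuclear sum and the S phase sum varied together over classes, with r of 0.80 over the 13 control classes, 0.77 over the 12 non_mCherry classes and 0.83 over the 7 mCherry clusters of at least 100 cells. With the G2 and M phase sum, r was 0.30, 0.50 and 0.75 in the same order. Median UMIs per cell also varied with the nuclear sum (r of 0.72, 0.83 and 0.69), and the parts of depth and of cycling were not separated. At S phase sums near 2000 CPM, control neutrophil-like cells (S phase 2067) had 6678 CPM of nuclear complex I. Control basophil and mast cell-like cells (1891) had 6899 CPM, and mCherry cluster 22 (2090.4) had 7218 CPM. The non_mCherry cluster led by Gm15915 and Tspo2 (2038) had 7217 CPM. Granulocyte-monocyte progenitor-like cells, at slightly higher S phase sums of 2337 (control) and 2286 (non_mCherry), had 9575 and 9862 CPM of nuclear complex I. These levels were set side by side on S phase genes only. The G2 and M phase sum was 4872 CPM in cluster 22. Classes with the next highest such sums had more nuclear complex I. They were non_mCherry B cell progenitor-like cells (3564, nuclear 8831 CPM) and the control cluster led by 1500009L16Rik and Myl10 (3352, nuclear 8274 CPM).

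**Figure D4:**
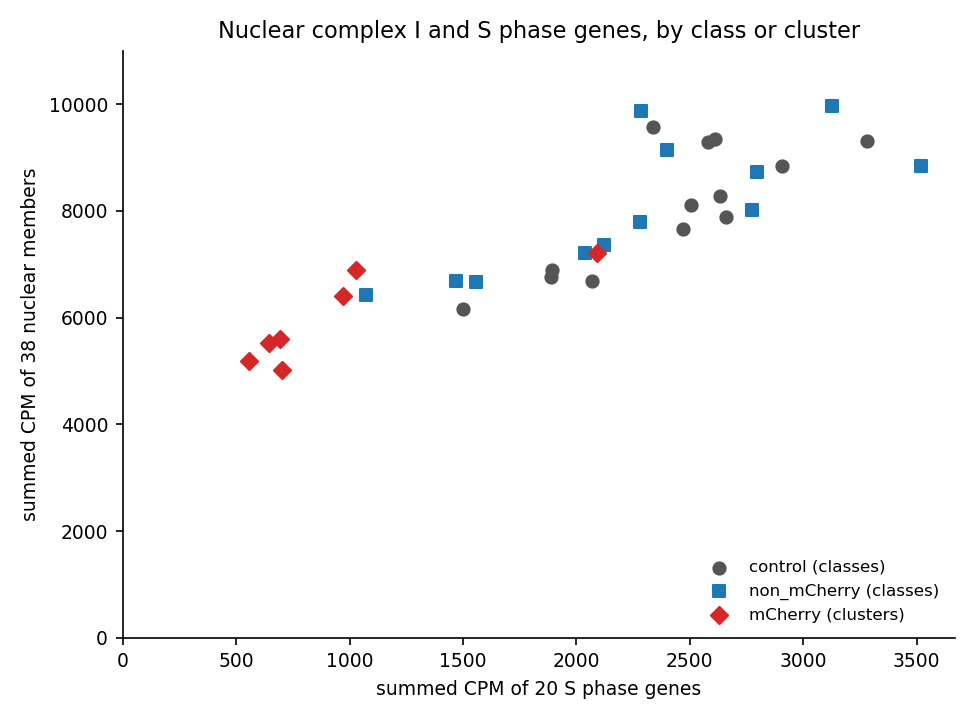
Nuclear complex I against S phase genes, both as summed CPM, with 1 point per class (control, non_mCherry) or per cluster (mCherry) of at least 100 cells. Of the 7 mCherry clusters, 6 lie at S phase sums of 557 to 1028 CPM, and cluster 22 lies at 2090.4 and 7218 CPM among the control and non_mCherry points. The G2 and M phase sum, not drawn here, was higher in cluster 22 (4872 CPM) than at any other point.

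Of the classes found in all 3 libraries, the basophil and mast cell-like class had a nuclear sum of 6899 (control), 6668 (non_mCherry) and 5181 CPM (mCherry). The quotient of mCherry over control was 0.751 (interval 0.741 to 0.761), and 28 of 37 members were lower and 1 higher, where 28.4% and 32.7% of all measured genes were. Different clusters hold the class, clusters 3 and 18 in control and non_mCherry and cluster 21 in mCherry. Cluster 3 was led by Prss34 and Mcpt8, cluster 18 by Gzmb and Scin, and cluster 21 by Cma1 and Mcpt4. The cells compared may thus differ in type within the class. The S phase sum of the class was 1891, 1555 and 557 CPM. The megakaryocyte-like class was at 8108, 7800 and 6964 CPM, a quotient of 0.859 to control, with 20 members lower and 2 higher (30.1% and 35.2% of all measured genes). Here clusters 8 and 13, both led by Pf4 and Sdpr, stood against cluster 27 with 175 cells, led by Nupr1 and Sapcd1. The S phase sum was 2504, 2279 and 1028 CPM. The mt-Nd sums of the classes differed in direction, at 1.14 of control in the basophil and mast cell-like class and 0.747 of control in the megakaryocyte-like class.

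No stem-like cluster reached 100 cells outside the mCherry library, so cells were also scored one by one with the same markers. Such a class is a range of a score, and the cells within 0.25 of the next class made up 16.3% (control), 14.7% (non_mCherry) and 28.8% (mCherry). The scoring also put 2259 mCherry cells in a stromal and endothelial cell-like class. It put 817 control cells in the T, NK and innate lymphoid class, which held 141 by cluster. A scored class is therefore not an established cell type. The 308 control and 3352 mCherry cells scored as stem and multipotent progenitor-like had median depths of 8579 and 8566 UMIs, and S phase sums of 1878 and 991 CPM. Their nuclear sums were 7094 and 5873 CPM, so the quotient of mCherry over control was 0.828 (interval 0.816 to 0.840), with 26 members lower and 2 higher, beside 27.2% and 22.5% of all measured genes. Ndufb6 was at 115 CPM in control and 60.2 CPM in mCherry (-0.88), and Ndufb8 at 315 and 175 CPM (-0.83). Ndufa6 was at 157 and 244 CPM (0.61) and Ndufa4 at 787 and 1073 CPM (0.44). The mt-Nd quotient was 0.784 in these cells, with mt-Nd1 at 2083 CPM in control and 1283 CPM in mCherry (-0.70) and mt-Nd4l at 59.9 and 114 CPM (0.88). Since both sums were lower in mCherry, nuclear UMIs per mt-Nd UMI were 1.48 in control and 1.56 in mCherry, beside 2.35 and 1.56 over all cells.

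Between non_mCherry and control, the nuclear sum differed little within the 11 classes that both libraries held, from 0.914 of control in the unnamed cluster led by Gm15915 and Tspo2 to 1.07 in erythroid-like cells. The mt-Nd sum spread further, from 0.763 of control in erythroid-like cells, where 4 of 6 members were lower (2.83% of all measured genes), to 1.11 in monocyte and macrophage progenitor-like cells and 1.12 in the unnamed cluster led by Ly6c2 and Hp. It was below control beyond counting error in 8 of the 11 classes and above it in 2.

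The nuclear members differed in how far they varied between lineages. Ndufa5, a peripheral arm subunit, had the largest quotient of highest to lowest class among the measured nuclear members in control, 3.04, from 69.9 CPM in lymphoid-primed progenitor-like to 212 CPM in erythroid-like cells, and in non_mCherry it went from 57.8 to 232 CPM between the same classes. Ndufab1 was the next nuclear member with 2.50 (202 to 505 CPM, lymphoid to erythroid-like) and 2.77 in non_mCherry. Ndufs1 had 2.46 in control, with erythroid-like cells highest at 81.5 CPM, and 2.28 in non_mCherry. Ndufa4 had 2.36, with its highest level of 1001 CPM in the cluster led by 1500009L16Rik and Myl10, and 2.12 in non_mCherry. At the other end Ndufa7 (1.17), Ndufa13 (1.23) and Ndufa6 (1.27) were nearly level over the 13 control classes.

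Ndufa6 and Ndufb6 are the measured nuclear members with the highest and the lowest ratio of mCherry to control. Their ranges over the classes of at least 100 cells set mCherry apart from the other libraries. Ndufa6 was at 147 to 187 CPM over the control classes, 152 to 204 CPM over the non_mCherry classes and 217 to 267 CPM over the mCherry classes, with no overlap between mCherry and the others. Ndufb6 was at 89.5 to 202 CPM over the control classes, 87.8 to 219.7 CPM over the non_mCherry classes and 53.2 to 81.6 CPM over the mCherry classes, again without overlap. Such a gap was not particular to these genes, and Ndufs6 and Ndufa2 also had one. Ndufb5 was at 161 to 214 CPM over the mCherry clusters, with lowest classes of 279 CPM (control) and 267 CPM (non_mCherry). The share of all measured genes with such a gap was not computed, while 33.9% were called lower and 34% higher in mCherry than in control. These ranges compare 1 library with 2 others, and classes of a library are not replicates.

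In single cells, the share of UMIs from nuclear members had medians of 0.840% in control, 0.805% in non_mCherry and 0.542% in mCherry, and its 75th percentile in mCherry (0.644%) lay below the 25th percentile in control (0.717%) and in non_mCherry (0.656%). The mt-Nd share had medians of 0.350%, 0.335% and 0.355%. The shallower cells of each library had lower nuclear sums than the deeper ones, 7577 against 9089 CPM in control, 7280 against 8947 CPM in non_mCherry and 5169 against 6127 CPM in mCherry, when cells were split at the median depth. The deeper mCherry cells, with a median of 10271 UMIs, were below the shallower control cells, with a median of 9913 UMIs.

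**Figure D5:**
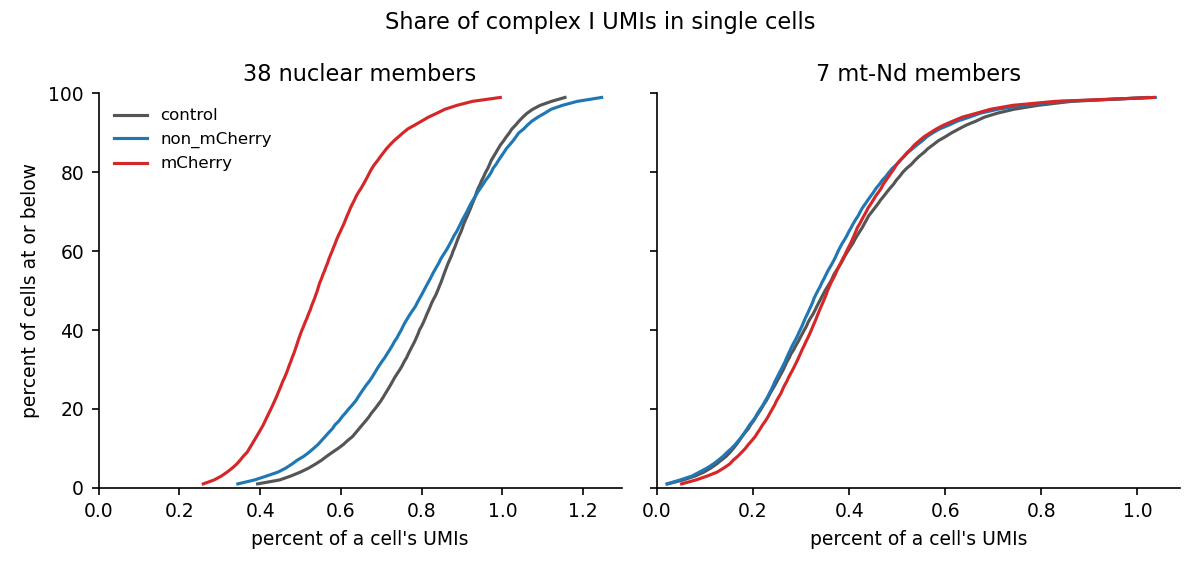
Cumulative percent of cells against the percent of a cell's UMIs that came from the 38 nuclear members (left) and the 7 mt-Nd members (right), from the 1st to the 99th percentile of each library. The nuclear curve of mCherry (median 0.542%) lies to the left of control (0.840%) and non_mCherry (0.805%), and the mt-Nd curves lie close together.

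Overlapping genes could affect single values. Of the 45 members, 26 overlap another annotated gene (GENCODE M21, mm10). Ndufb6 (chromosome 4, 40270591 to 40279421, minus strand) overlaps Smim27 on the other strand, Ndufb8 (chromosome 19, 44548572 to 44555440, minus strand) overlaps the same-strand gene Gm20538, and Ndufa6 (chromosome 15, 82350140 to 82354322, minus strand) and Ndufa4 (chromosome 6, 11900292 to 11907497, minus strand) overlap none.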

How the data were processed

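The authors deposited gene by cell matrices of UMI counts, 1 per library, made with Cell Ranger 6.1.2 on mm10 per the submitters' processing notes; the matrix headers name software version 3.1.0. From these counts, cells with at least 1000 genes, 2000 UMIs and at most 10% mitochondrial UMIs were kept, and Scrublet scores over 0.25 removed, a limit set with the data seen. CPM were sums over the kept cells divided by the library total. Clusters came from scanpy 1.11.5 (2000 variable genes without members and mitochondrial genes, 30 components, 15 neighbours, Leiden resolution 1.0), and classes needed 3 markers at 2-fold, a mean marker log2 of 1 and 100 cells. A cluster also stayed unnamed where another class had more markers among its 10 leading genes. So did a shallow cluster with no marker of its own class there. The naming and scoring rules were set after seeing the data. No test was made, since each group is 1 library. The intervals cover the counting error that comes with sequencing depth. They do not cover the difference in nuclear sum between shallower and deeper cells of a library. Calculations were tested on simulated data.

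The members, gene lists and markers were chosen with earlier results of these data known. Named genes were all mt-Nd and nuclear core members, per comparison the 6 lowest and 4 highest nuclear members, those past the limit against the sign of the median, those under the level filter, the ends of each list, and the 4 with the largest lineage quotient; 1 nuclear member is counted in sums and lists but not reported here by itself, and ends of other lists were printed for mCherry over control. Alternatives covered scaling, pseudocount (1 CPM), level filter, cell filters, mean of cell shares, cycling and class drawing. Promoter matching used RefSeq (GRCm38.p6).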

Additional observations from a re-analysis of the deposited data

Results flagged for a closer look

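With 1 library per group, opposite directions of a sum in different classes under the same comparison were looked for, and the differences between classes were not tested. The mt-Nd sum of mCherry over control was 0.747 in megakaryocyte-like cells and 1.14 in basophil and mast cell-like cells, and over non_mCherry it was 0.914 and 1.31 in the same classes. For non_mCherry over control, the mt-Nd sum was 0.763 in erythroid-like cells and 1.12 in the unnamed cluster led by Ly6c2 and Hp. The nuclear sum of the same comparison was 0.914 in the unnamed cluster led by Gm15915 and Tspo2 and 1.07 in erythroid-like cells, so erythroid-like cells were the highest class for the nuclear sum and the lowest for the mt-Nd sum. The classes compared in the mCherry library consist of other clusters than in the other libraries.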

How the results depend on the processing

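No paired analysis was possible because each group is 1 library. The nuclear sum of mCherry over control ran from 0.667 to 0.846 over the other settings and over non_mCherry up to 0.854, the high ends in cells without a cycle UMI; leaving out Ndufa4 and Ndufa4l2, added after seeing the data, gave 0.612 and 0.609. In cells without a cycle UMI, nuclear members lower in mCherry numbered 21 against control and 20 against non_mCherry, nuclear members higher 2 and 1, and mt-Nd members lower than control 0; for non_mCherry over control 1 nuclear member was lower and 1 mt-Nd member higher. The ratio of Ndufb10 became 0.026 and that of Ndufs1 0.10 there, and the cause was not tested. The mt-Nd count lower than control was also 0 with all barcodes, with no mitochondrial limit, and with mitochondrial genes and Malat1 out of the denominator, where 2 nuclear members were higher. For non_mCherry over control, the mean of cells' shares gave 1 lower nuclear member and the mean over classes 1 lower mt-Nd member. Nuclear UMIs per mt-Nd UMI in control, non_mCherry and mCherry were 2.33, 2.41 and 1.53 with no mitochondrial limit, 2.38, 2.46 and 1.60 with a limit of 5%, 2.22, 2.24 and 1.43 with all barcodes, 2.18, 2.20 and 1.48 as a mean of shares, and 1.752, 1.84 and 1.44 in cells without a cycle UMI. The quotient of highest to lowest nuclear class was 1.45 (control), 1.60 (non_mCherry) and 1.46 (mCherry) at resolution 2.0, 1.61 and 1.40 (non_mCherry, mCherry) at resolution 0.5, and 1.38, 1.40 and 1.20 with classes scored per cell. Over all alternatives 1296 of the member ratios stayed on their side of the limit, 35 crossed it and 2 changed sign.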
